A study of Mus musculus with 9 samples.

Results

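Immediate early and stress response genes were followed through RNA sequencing libraries of the fetal mouse intestine. The 35 genes were chosen by name out of the 24016 identifiers of the count table: 16 immediate early transcription factors, 6 immediate early genes of feedback and growth arrest, 8 heat shock genes and 5 genes of endoplasmic reticulum (ER) and integrated stress. All 35 were in the table, and all 35 passed the filter on low counts that left 15699 genes for testing. The libraries formed 3 groups of 3, all from wild type C57BL/6 embryos at E14.5: whole intestine treated with cyclopamine, separated epithelium with no agent, and separated mesenchyme with no agent. Cyclopamine is a plant alkaloid that inhibits Smoothened and with it the hedgehog pathway. Per the series design, intestines were cultured on transwells for 24 hours. Whether the layers were separated before or after culture, how this was done, and whether a library came from 1 embryo or a pool is not stated in the labels. Treatment, wholeness of the tissue and any difference in handling therefore cannot be told apart between treated intestine and the layers. Whole intestine without the drug was not analysed here.

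Immediate early genes are transcribed within minutes of a growth signal, a mechanical stimulus or tissue dissociation, without prior protein synthesis. Fos and Jun proteins pair as the transcription factor AP-1, Egr and Klf factors are zinc finger proteins, and Dusp1 and Zfp36 switch the response off again. Heat shock genes are driven by the factor Hsf1 when proteins misfold, and encode chaperones, several of which are also abundant in unstressed dividing cells. The unfolded protein response of the ER works through Hspa5 and Xbp1, and the integrated stress response slows translation while Atf4 turns on Ddit3, Trib3 and genes of amino acid supply.

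Total counts ranged from 14325792 to 18274881 in treated intestine, from 19934048 to 22836297 in epithelium and from 9739394 to 26357115 in mesenchyme. Mesenchyme 1 stood apart: the ribosomal precursor Rn45s took 59.06% of its counts, against 0.1121% to 1.193% in the other 8 libraries, and 3284702 of its counts remained without Rn45s, Lars2 and Mir6236. Counts of members are therefore given with and without it below. The labels were checked with defining genes. The epithelial adhesion gene Epcam averaged 484 ± 47.5 CPM (read counts scaled to a TMM-adjusted library size) in treated intestine, 845 ± 32.2 CPM in epithelium and 21.1 ± 1.46 CPM in mesenchyme (SD, n = 3 each). The collagen gene Col1a1 averaged 593 ± 79.4 CPM in treated intestine, 81.2 ± 74.3 CPM in epithelium and 2240 ± 490 CPM in mesenchyme (SD, n = 3 each). Gli1, a direct hedgehog target, averaged 1.6 ± 0.866 CPM in treated intestine, 6.96 ± 5.65 CPM in epithelium and 215 ± 13.8 CPM in mesenchyme (SD, n = 3 each). Summed over 15 fibroblast and mesenchyme markers, all with counts in every library, the level was 4710 to 5170 CPM in treated intestine, 218 to 1130 CPM in epithelium and 10400 to 14300 CPM in mesenchyme. In such bulk samples fewer cells of a type and less RNA per cell cannot be told apart.

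Per length, chaperones were the most abundant members and Fosb and Egr2 the least. In CPM per kilobase of transcript, the cytosolic chaperone Hsp90ab1 ranked 1 in every group, with 829 in treated intestine, 1280 in epithelium and 687 in mesenchyme. Hspa8, the constitutive cytosolic Hsp70, ranked 2 in every group, with 522 in treated intestine, 773 in epithelium and 372 in mesenchyme. Fosb, a partner of Jun proteins, ranked 35 in every group, with 0.278 in treated intestine, 0.092 in epithelium and 0.391 in mesenchyme. Trib3 changed place most among the ER and integrated stress genes: it ranked 14 in treated intestine, 6 in epithelium and 12 in mesenchyme.

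**Figure D1:**
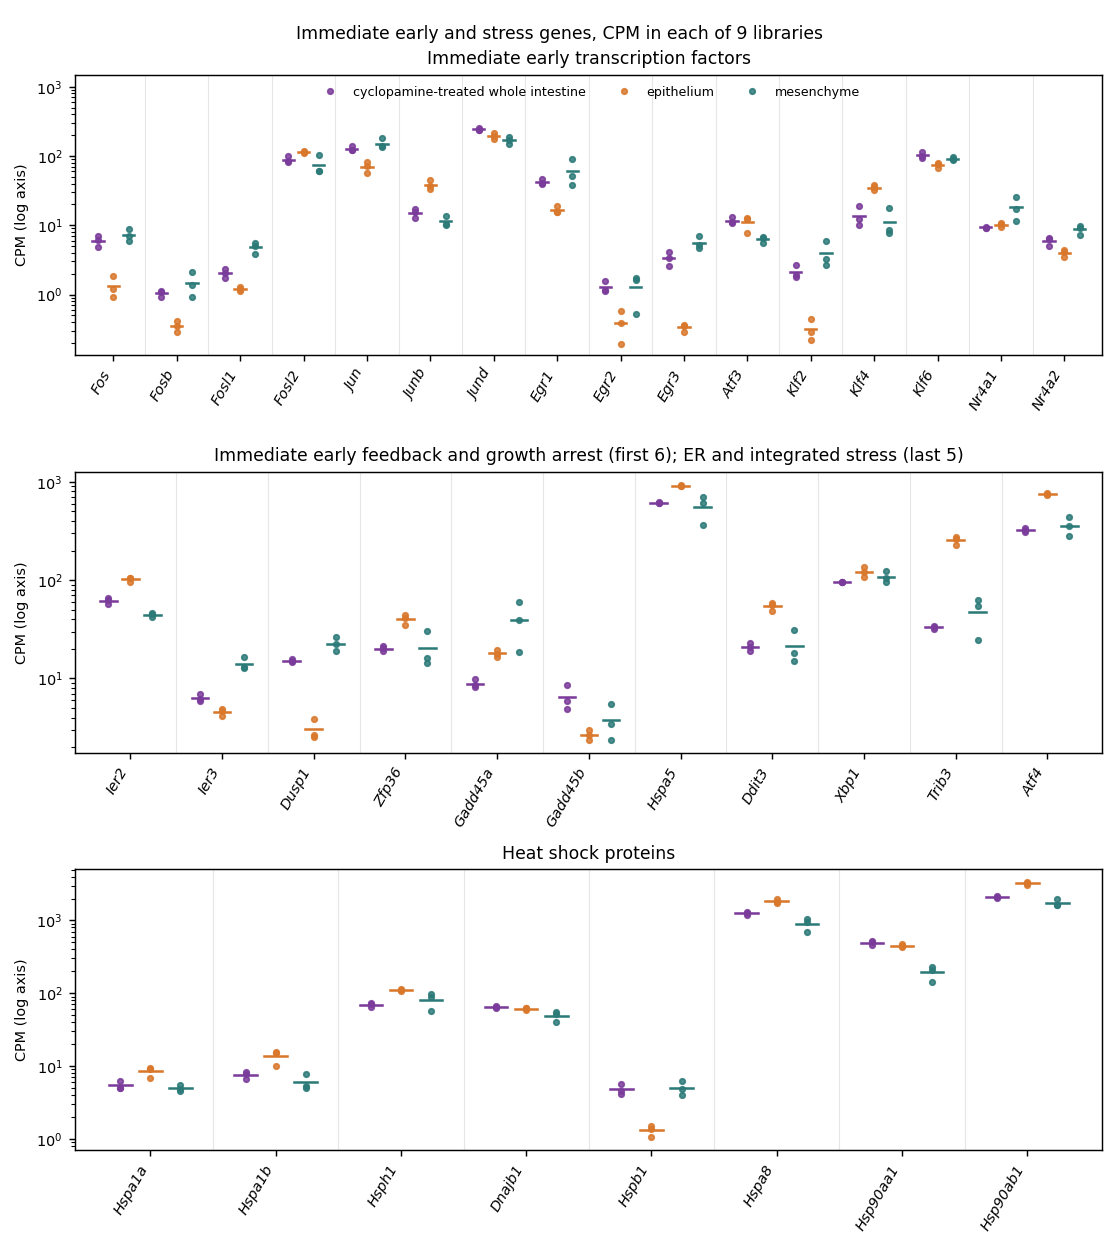
CPM on a log axis for each of the 35 members in the 9 libraries, with cyclopamine-treated whole intestine, epithelium and mesenchyme side by side; points are libraries and bars are group means. Egr3 lies at 0.286 to 0.368 CPM in epithelium, far under its 4.63 to 6.89 CPM in mesenchyme, while Trib3 lies at 230 to 272 CPM in epithelium and at 24.8 to 63 CPM in mesenchyme.

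The comparison of separated epithelium with separated mesenchyme asked how the members differ between the layers. With edgeR (quasi-likelihood F test, Benjamini-Hochberg adjustment over all genes, threshold 0.05), 16 members were higher in epithelium, 15 were lower and 4 did not pass. No overlap between the values of the layers was seen for 17 members with the higher and 13 with the lower level in epithelium, and for 73.6% of all genes. The layers differed for 69.6% of all 15699 genes tested, 34.6% higher and 35.1% lower, so a large share of called members is also what the whole table gave. The roles split by direction. Immediate early transcription factors were mostly lower in epithelium, with 4 higher and 11 lower of 16 and a median log2 difference of -1.13. Heat shock genes were mostly higher, with 6 higher and 1 lower of 8 and a median of 0.82. Of the 5 ER and integrated stress genes 4 were higher and none was lower, with a median of 1.08. Genes of feedback and growth arrest were divided, with 2 higher and 3 lower of 6 and a median of -0.87. The median over all genes tested was 0.04. Without mesenchyme 1 the counts were 18 higher and 15 lower. Under upper quartile scaling, which moved the median of all genes by -0.111 on the log2 scale, they were 14 and 15.

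**Figure D2:**
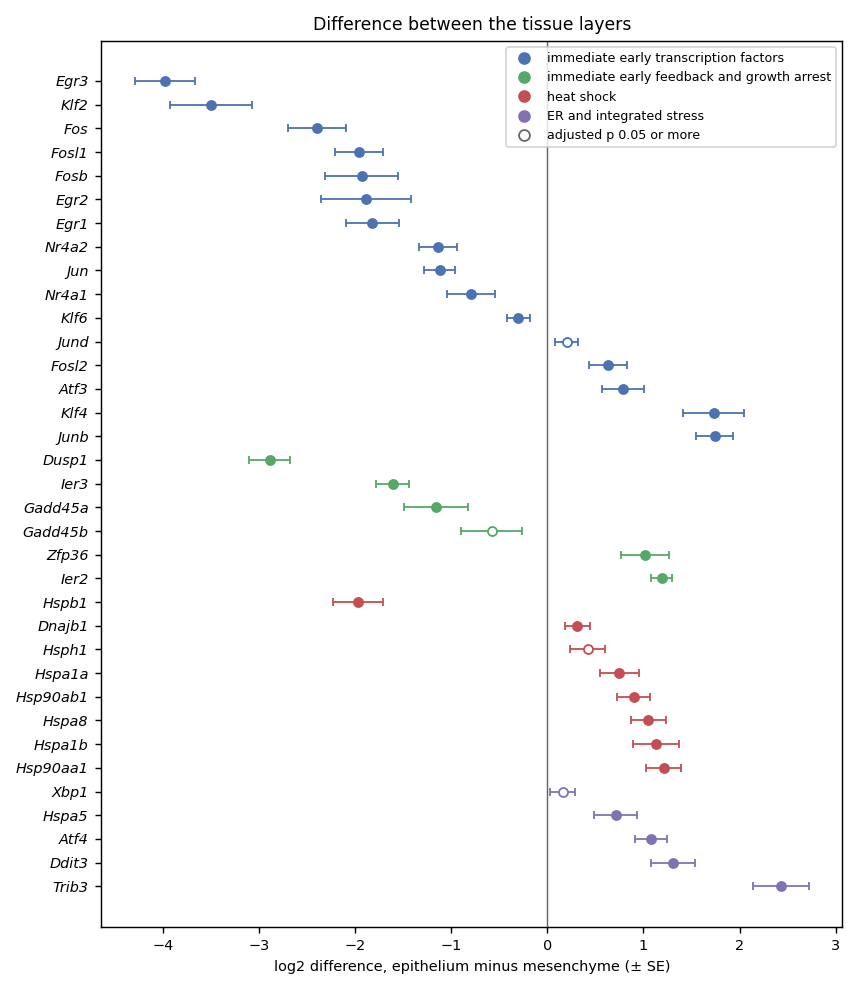
Log2 difference between epithelium and mesenchyme (epithelium minus mesenchyme) for the 35 members, with bars of ± 1 SE from the edgeR fit of 9 libraries and open points where the adjusted p is 0.05 or more. Immediate early transcription factors reach from -3.98 (Egr3) to 1.74 (Junb), and all 5 ER and integrated stress genes lie above 0, up to 2.43 for Trib3.

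Among the transcription factors the widest gap was that of Egr3, a zinc finger factor induced by calcium and growth signals. Egr3 had 0.368, 0.349 and 0.286 CPM in epithelium 1 to 3, against 6.89, 4.63 and 5.15 CPM in mesenchyme 1 to 3. No epithelium value came near a mesenchyme value, and the level was 15.8-fold lower in epithelium (log2 -3.98, SE 0.31, edgeR adjusted p = 3.97e-06). Klf2, a flow-responsive factor of endothelium and quiescent lymphocytes, had 0.45, 0.218 and 0.286 CPM in epithelium, against 5.83, 3.26 and 2.71 CPM in mesenchyme (log2 -3.50, SE 0.43, edgeR adjusted p = 5.9e-05). The endothelial markers moved the same way: the sum of 11 of them, all with counts in every library, was 9.78 to 50.7 CPM in epithelium and 677 to 886 CPM in mesenchyme, and the sum of 10 macrophage and leukocyte markers was 18.7 to 38 CPM in epithelium and 211 to 272 CPM in mesenchyme. The part of these cells in the difference was not tested.

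The Fos family was divided. Fos had 1.84, 1.22 and 0.907 CPM in epithelium, against 8.74, 5.86 and 7.06 CPM in mesenchyme, 5.29-fold lower in epithelium (log2 -2.40, SE 0.30, edgeR adjusted p = 6.99e-05). Epithelium 1 held the highest of the 3 epithelial Fos values, and it also held the highest epithelial sum of fibroblast and mesenchyme markers, 1130 CPM against 315 and 218 CPM in epithelium 2 and 3. The part of these markers' cells in the Fos value was not tested. Fosl1, a Fos relative without a transactivation domain of its own, had 1.27, 1.13 and 1.19 CPM in epithelium, against 5.56, 4.94 and 3.83 CPM in mesenchyme (log2 -1.96, SE 0.25), and Fosb differed by -1.93 (SE 0.38). Fosl2, the most abundant Fos member per length, went the other way, with 117, 109 and 114 CPM in epithelium and 102, 59.8 and 60.9 CPM in mesenchyme (log2 0.63, SE 0.20, edgeR adjusted p = 0.0167). That call was lost when any library other than mesenchyme 1 was left out, with log2 values of 0.50 to 0.59, and held at 0.92 without mesenchyme 1.

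The Jun family was divided as well. Junb, which can restrain the activity of Jun, had 44.7, 37.4 and 33.2 CPM in epithelium, all above the 10.1, 13.7 and 10.4 CPM in mesenchyme (log2 1.74, SE 0.19, edgeR adjusted p = 2.75e-05). Jun itself had 57.5 to 81.5 CPM in epithelium and 134 to 180 CPM in mesenchyme (log2 -1.12, SE 0.16). Jund, the most abundant of the 16 factors per length, had 192, 176 and 214 CPM in epithelium and 185, 171 and 150 CPM in mesenchyme, and did not pass (log2 0.20, SE 0.12, edgeR adjusted p = 0.162). The annotation places a transcript on the opposite strand over 877 bases of Jund, 232 of Jun and 173 of Junb (Prdx2), and over 1163 bases of Fosl1 (Ccdc85b). No source used here gives the strand setting of the counting, so reads of such partners cannot be told apart.

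The remaining factors lay on both sides. Klf4, a differentiation factor of gut epithelium, had 37.5, 32.4 and 35.3 CPM in epithelium, against 17.5, 7.8 and 8.6 CPM in mesenchyme (log2 1.73, SE 0.32). Atf3, a stress-induced repressor, had 12.8, 7.76 and 12.5 CPM in epithelium and 5.56, 6.75 and 6.51 CPM in mesenchyme (log2 0.79, SE 0.22, edgeR adjusted p = 0.00856). Egr1 and Egr2 were lower in epithelium, by log2 differences of -1.82 (SE 0.28) and -1.89 (SE 0.47), as were the orphan receptors Nr4a2 (-1.14, SE 0.20) and Nr4a1 (-0.79, SE 0.25). Egr2 overlapped between the layers: mesenchyme 1 held 2 counts, or 0.53 CPM, within the epithelial range of 0.191 to 0.573 CPM. Mesenchyme 2 and 3 had 1.63 and 1.74 CPM of Egr2. Nr4a1 moved to -0.50 without mesenchyme 1. Klf6 differed least among those that passed (log2 -0.30, SE 0.12, edgeR adjusted p = 0.0403), and its call was lost without epithelium 2 or mesenchyme 3.

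Promoter sequences were read for the members with a RefSeq entry, 28 of 35 by symbol, as the 250 bases before the start site on build GRCm38.p6. Fos and Dusp1 are shown because both are classic targets of cAMP and growth signals and both differed strongly between the layers. They stand on chr12:85473640-85473889, plus strand (Fos), and chr17:26508473-26508722, minus strand (Dusp1). Capitals mark TGACG on either strand, the core of the cAMP response element, and TGACGTCA in Dusp1 is a match on both strands that overlap.
Fos: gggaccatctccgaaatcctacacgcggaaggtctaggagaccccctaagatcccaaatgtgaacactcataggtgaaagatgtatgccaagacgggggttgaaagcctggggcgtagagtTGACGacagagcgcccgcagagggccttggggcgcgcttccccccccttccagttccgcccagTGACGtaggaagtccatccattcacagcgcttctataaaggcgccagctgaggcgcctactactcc
Dusp1: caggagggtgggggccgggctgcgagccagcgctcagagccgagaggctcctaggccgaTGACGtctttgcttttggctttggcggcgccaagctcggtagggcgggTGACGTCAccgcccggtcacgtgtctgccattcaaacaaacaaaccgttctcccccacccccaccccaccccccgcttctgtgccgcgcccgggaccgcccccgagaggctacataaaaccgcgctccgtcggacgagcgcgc
In Fos the matches began 129 and 66 bases before the start, and in Dusp1 191, 143 and 140 bases before it. TGACG on either strand was in 17 of the 34 windows of members (15 genes), and in 17.8% of 32851 windows of all genes. The AP-1 site TGANTCA was in 2 member windows, those of Hspa5 and Ddit3, and in 6.75% of all windows. A CArG box, the site of serum response factor, was in 5 member windows and in 1.47% of all. These 5 came from 2 of 28 genes, Zfp36 and Egr2, and Egr2 has several start sites. Egr1 and Egr3 had no window. A match describes letters in these windows and is no evidence of binding.

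Among the genes of feedback and growth arrest, Dusp1, the phosphatase that inactivates MAP kinases, had the widest gap. Dusp1 had 3.89, 2.53 and 2.67 CPM in epithelium, against 22.5, 19 and 26.2 CPM in mesenchyme, 7.42-fold lower in epithelium (log2 -2.89, SE 0.21, edgeR adjusted p = 2.67e-06). Ier3, an early gene linked to cell survival, followed with 4.62, 4.19 and 4.92 CPM in epithelium and 16.4, 13 and 12.9 CPM in mesenchyme (log2 -1.61, SE 0.17). Ier2 went the other way without overlap, with 105, 96.6 and 105 CPM in epithelium and 42.6, 45.3 and 46 CPM in mesenchyme (log2 1.19, SE 0.11). Zfp36, which destabilises AU-rich messages, had 43.8, 41 and 35.1 CPM in epithelium and 30.7 CPM in mesenchyme 1, the highest of a mesenchyme mean of 20.5 ± 8.9 CPM (SD, n = 3; log2 1.02, SE 0.25). Gadd45a, a growth arrest gene induced by DNA damage and by the integrated stress response, was the least even: it had 19.7, 17.9 and 16.4 CPM in epithelium and 18.5, 59.9 and 39.6 CPM in mesenchyme. Mesenchyme 1 overlapped the epithelial values, and the log2 difference of -1.16 (SE 0.33, edgeR adjusted p = 0.00971) was -1.46 without mesenchyme 1 and -0.74 without mesenchyme 2. Gadd45b did not pass (log2 -0.58, SE 0.32, edgeR adjusted p = 0.132).

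Of the 8 heat shock genes 6 were higher in epithelium, and Hspb1 was lower. Hsp90aa1, the inducible cytosolic Hsp90, had 438, 442 and 475 CPM in epithelium, against 142, 210 and 231 CPM in mesenchyme (log2 1.21, SE 0.18, edgeR adjusted p = 0.000188). Hspa8 had 1800, 1980 and 1750 CPM in epithelium, against 692, 1030 and 949 CPM in mesenchyme (log2 1.05, SE 0.18). Hsp90ab1 had 3050, 3270 and 3360 CPM in epithelium and 1610, 1640 and 1940 CPM in mesenchyme (log2 0.90, SE 0.17). Dnajb1, the Hsp40 partner of Hsp70, differed by 0.31 (SE 0.13, edgeR adjusted p = 0.0488). It was not called without any 1 epithelium or treated library, nor under either other scaling. Hsph1, an Hsp70 exchange factor, did not pass (log2 0.42, SE 0.18, edgeR adjusted p = 0.0541) and passed without mesenchyme 1 or 3. Hspb1, a small heat shock protein abundant in muscle, had 1.51, 1.35 and 1.05 CPM in epithelium and 3.97, 6.17 and 4.87 CPM in mesenchyme (log2 -1.97, SE 0.26, edgeR adjusted p = 0.000105). The sum of 10 smooth muscle markers, all with counts in every library, was 64 to 266 CPM in epithelium and 2760 to 3740 CPM in mesenchyme, and its part in the Hspb1 difference was not tested.

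The inducible Hsp70 genes Hspa1a and Hspa1b are neighbouring copies. Their promoters are shown for this likeness, on chr17:34972157-34972406 and chr17:34959239-34959488 (minus strand, GRCm38.p6, RefSeq). Capitals mark GAANNTTC, an inverted pair of heat shock element units, which reads alike on both strands.
Hspa1a: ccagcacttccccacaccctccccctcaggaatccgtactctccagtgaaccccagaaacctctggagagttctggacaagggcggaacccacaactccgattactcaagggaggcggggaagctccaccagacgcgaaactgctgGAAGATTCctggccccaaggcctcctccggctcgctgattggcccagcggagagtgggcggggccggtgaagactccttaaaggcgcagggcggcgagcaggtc
Hspa1b: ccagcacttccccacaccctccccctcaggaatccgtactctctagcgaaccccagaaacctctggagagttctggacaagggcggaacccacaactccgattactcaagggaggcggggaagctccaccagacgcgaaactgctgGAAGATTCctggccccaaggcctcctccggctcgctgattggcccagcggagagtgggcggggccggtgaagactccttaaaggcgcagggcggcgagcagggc
The windows were identical at 247 of 250 bases (98.8%) and held the pair at the same place, 104 bases before the start. For the count over windows, inverted units in either order were taken as a pair, GAANNTTC being one of these orders. Such pairs were in 8 of the 34 member windows (7 genes) and in 12.8% of all windows. The share with GAANNTTC alone was not counted. The transcripts shared 2460 identical bases over lengths of 2967 and 2803, so reads may be split between the copies and each gene's value is uncertain. The annotation also places Gm20481 on the opposite strand over 564 bases of Hspa1a. Summed over both copies, the level was 24.2, 16.8 and 24.9 CPM in epithelium, above the 9.53, 13.3 and 10.1 CPM in mesenchyme. The separate log2 differences were 0.75 (SE 0.20) for Hspa1a and 1.13 (SE 0.24) for Hspa1b. At these levels both inducible copies lay far under Hspa8 per length: in epithelium 2.83 and 4.82 CPM per kilobase stood beside 773. Hspa8 itself is overlapped on the same strand by the small RNA genes Snord14c, Snord14d and Snord14e, over 86, 86 and 90 bases.

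The ER and integrated stress genes were led by Trib3, a pseudokinase that is induced by Atf4 and Ddit3. Trib3 had 272, 230 and 262 CPM in epithelium, against 55.1, 63 and 24.8 CPM in mesenchyme, 5.39-fold higher in epithelium (log2 2.43, SE 0.29, edgeR adjusted p = 5.33e-05). All 3 epithelium values lay above all 3 mesenchyme values, of which mesenchyme 3 was the lowest. Its promoter stands on chr2:152344061-152344310 (minus strand, GRCm38.p6, RefSeq), shown with TGACG on either strand in capitals, 237 and 10 bases before the start. The C/EBP-ATF composite site TGATGNAA was not in this window. That site was in 1 of the 34 member windows, that of Atf3, and in 3.45% of all windows.
Trib3: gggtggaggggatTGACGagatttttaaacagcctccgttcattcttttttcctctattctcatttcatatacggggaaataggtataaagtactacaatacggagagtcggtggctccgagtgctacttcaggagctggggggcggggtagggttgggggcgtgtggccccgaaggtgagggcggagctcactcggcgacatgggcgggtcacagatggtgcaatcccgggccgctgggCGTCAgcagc
Ddit3, the CHOP factor of late ER stress, had 58, 48.7 and 55.5 CPM in epithelium and 15.1, 30.8 and 18.3 CPM in mesenchyme (log2 1.31, SE 0.23, edgeR adjusted p = 0.000721). Atf4, the central factor of the integrated stress response, had 775, 741 and 751 CPM in epithelium and 280, 439 and 353 CPM in mesenchyme (log2 1.08, SE 0.17, edgeR adjusted p = 0.00028). Hspa5, the ER Hsp70 known as BiP, had 935, 910 and 897 CPM in epithelium and 364, 702 and 611 CPM in mesenchyme (log2 0.71, SE 0.22, edgeR adjusted p = 0.015), a call lost when the 6 libraries of the layers were fitted alone. Xbp1, the spliced factor of the Ire1 arm, did not pass, at 107 to 135 CPM in epithelium and 95.1 to 124 CPM in mesenchyme (log2 0.16, SE 0.13, edgeR adjusted p = 0.292). Gene counts do not show Xbp1 splicing, nor translation of Atf4, by which both factors are mainly controlled.

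Other genes of the same pathways were counted from lists that hold none of the members. Of all genes tested 34.6% were higher in epithelium and 35.1% were lower, with a median of 0.04. Of 21 ATF4 target genes 19 were higher in epithelium and none was lower, with a median log2 difference of 1.12. The stress cofactor Nupr1 (log2 3.41, SE 0.52), the secreted Stc2 (3.05, SE 0.17) and Gdf15 (1.92, SE 0.37) led them. Among 26 other genes of the ER unfolded protein response 10 were higher and 2 were lower (median 0.52), led by the goblet cell Ire1 relative Ern2 (4.44, SE 0.73). In this list 46.2% of genes were called, fewer than the 69.6% of all genes tested. Its count of higher genes was 16 without mesenchyme 2. The 2 lower calls held together without epithelium 3 and numbered 0 or 1 without each of the other 8 libraries. Of 24 other heat shock genes 12 were higher and 6 were lower (median 0.60). The mitochondrial chaperones Hspd1 (2.54, SE 0.16), Hspa9 (2.15, SE 0.18) and Hspe1 (2.13, SE 0.28) were higher in epithelium, while the muscle chaperone Cryab (-3.26, SE 0.40), its partner Bag3 (-3.23, SE 0.18) and the collagen chaperone Serpinh1 (-2.20, SE 0.21) were lower. Of 30 other immediate early genes tested, 8 were higher and 14 were lower (median -0.25). Ptgs2 (-3.89, SE 0.32), Sgk1 (-3.87, SE 0.21) and Dusp2 (-3.57, SE 0.24) were lower in epithelium, while Myc (2.45, SE 0.23), Mafk (2.37, SE 0.13) and Errfi1 (2.09, SE 0.11) were higher. Of 15 p53 target genes 12 were higher and 1 was lower (median 0.97), with Pmaip1 (3.88, SE 0.22) and the cell cycle inhibitor Cdkn1a (3.20, SE 0.23) in front.

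Treated whole intestine was then set against each layer, with the same 3 treated libraries in both comparisons. Against epithelium, 15 members were higher in treated intestine, 15 were lower and 5 did not pass, where 61.9% of all genes tested passed, 32.1% higher and 29.8% lower. Against mesenchyme, 5 were higher, 6 were lower and 24 did not pass, where 41.2% of all genes passed, 20.8% higher and 20.5% lower. By role, 11 of the 16 transcription factors were higher than in epithelium and 2 were lower (median log2 difference 0.67). All 5 ER and integrated stress genes were lower than in epithelium (median -1.22), and none passed against mesenchyme (median -0.14). Heat shock genes were lower than in epithelium for 5 of 8 (median -0.59) and higher than in mesenchyme for 2 (median 0.28). Medians over all genes tested were -0.02 in each comparison. The treated values did not overlap those of epithelium for 15 members that were higher and 16 that were lower (77.7% of all genes in either direction), nor those of mesenchyme for 7 that were higher and 8 that were lower (54.8%). The mean of treated intestine lay between the means of the layers for 21 of the 35 members and for 54.9% of all genes tested. Without mesenchyme 1 the counts against mesenchyme were 9 higher and 5 lower: Fosl2, Klf4, Zfp36 and Hspa8 passed as higher and Hsph1 as lower, while Nr4a2 and Dusp1 no longer passed. Without treated library 1, 2 or 3 they were 4 higher and 3 lower each time. Against epithelium the lower members numbered 9 without epithelium 1, 9 without treated library 1 and 8 without treated library 3. Upper quartile scaling moved the median of all genes against epithelium by 0.181 and the share of calls that were higher to 62%, against 51.8%, and left 15 members higher and 11 lower.

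**Figure D3:**
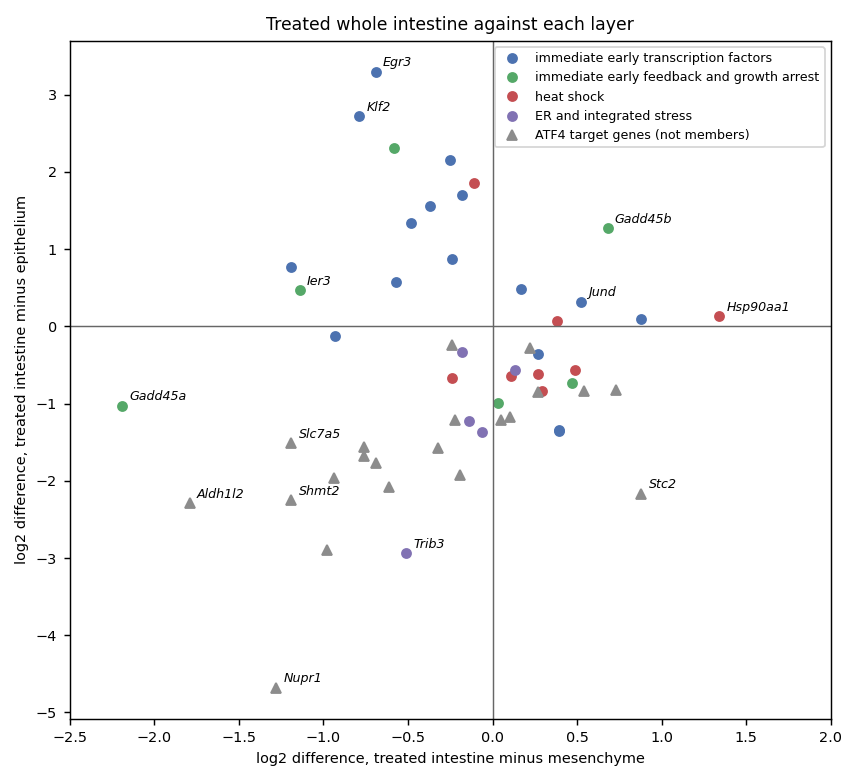
Log2 difference of cyclopamine-treated whole intestine from mesenchyme (x axis) and from epithelium (y axis) for the 35 members, coloured by role, and for 21 ATF4 target genes (triangles). Gadd45a lies in the lower left at -2.19 and -1.03, Hsp90aa1 at the right at 1.34 and 0.13, and Trib3 at the bottom of the members at -0.51 and -2.94.

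Of the transcription factors that were low in epithelium, all but Nr4a1 were higher in treated intestine than in that layer. Nr4a1 did not pass there (log2 -0.13, SE 0.25, edgeR adjusted p = 0.659). The same epithelium libraries served in both comparisons, so choosing factors low in them favours such a result. The share among all genes low in epithelium was not counted. Egr3 had 3.35, 2.61 and 4.09 CPM in treated intestine (log2 3.30 against epithelium, SE 0.31, edgeR adjusted p = 2.35e-05), Klf2 had 2.71, 1.92 and 1.79 CPM (2.72, SE 0.42) and Fos had 6.91, 6.04 and 4.88 CPM (2.15, SE 0.29). Each of these treated values lay above every epithelial value. None of the 3 passed against mesenchyme, where the log2 differences were -0.69 (Egr3, SE 0.26, edgeR adjusted p = 0.0568), -0.79 (Klf2, SE 0.37, edgeR adjusted p = 0.112) and -0.25 (Fos, SE 0.28, edgeR adjusted p = 0.493). Egr2 had 1.12, 1.16 and 1.56 CPM in treated intestine and 0.573, 0.392 and 0.191 CPM in epithelium (log2 1.70, SE 0.46). Fosb (log2 1.56, SE 0.37), Egr1 (1.34, SE 0.28), Jun (0.87, SE 0.16) and Klf6 (0.48, SE 0.12) were also higher than in epithelium, as was Nr4a2 (0.57, SE 0.20, a call lost without epithelium 3 or treated library 1 or 3). Junb and Klf4 were lower than in epithelium, and Fosl2 did not pass (-0.36, SE 0.19). Junb had 17.3, 15.3 and 12.7 CPM in treated intestine (log2 -1.35 against epithelium, SE 0.18) and Klf4 had 19, 12.4 and 10.1 CPM (-1.34, SE 0.31).

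Against mesenchyme the factors that passed were few. Atf3 had 11.3, 10.9 and 13.1 CPM in treated intestine, all above the 5.56 to 6.75 CPM in mesenchyme (log2 0.88, SE 0.22, edgeR adjusted p = 0.0103), and did not pass against epithelium (0.09, SE 0.21). Jund had 238, 250 and 238 CPM, above every library of both layers (log2 0.52 against mesenchyme, SE 0.12, edgeR adjusted p = 0.00783, and 0.32 against epithelium, SE 0.12, edgeR adjusted p = 0.0407). The call against epithelium was lost without epithelium 2 or treated library 2. Fosl1 had 1.75, 2.03 and 2.35 CPM in treated intestine and lay between the layers, lower than mesenchyme (log2 -1.19, SE 0.24) and higher than epithelium (0.77, SE 0.25, a call lost without epithelium 2 or treated library 3). Nr4a1, an orphan receptor of activated cells, had 9.24, 9.12 and 9.52 CPM in treated intestine against 26, 11.7 and 17.1 CPM in mesenchyme (log2 -0.93, SE 0.25, edgeR adjusted p = 0.0157). Its difference was -0.60 without mesenchyme 1, and its call was lost without any 1 treated library. Nr4a2 (log2 -0.57, SE 0.20, edgeR adjusted p = 0.0439) kept its call without mesenchyme 2 and lost it without each of the other 8 libraries.

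Of the genes of feedback and growth arrest, Dusp1 had 14.9, 14.6 and 15.9 CPM in treated intestine. That was higher than in epithelium (log2 2.31, SE 0.20, edgeR adjusted p = 1.82e-05) and lower than in mesenchyme (-0.58, SE 0.19, edgeR adjusted p = 0.0358), the second call being lost in all leave-outs but those of epithelium 1 and mesenchyme 2. Ier3 had 5.84, 6.97 and 6.16 CPM in treated intestine, lower than in mesenchyme (log2 -1.14, SE 0.17, edgeR adjusted p = 0.000773) and higher than in epithelium (0.47, SE 0.17, a call lost without epithelium 2 or treated library 2). Ier2 had 62.1, 66.3 and 57 CPM, lower than in epithelium (log2 -0.73, SE 0.10) and higher than in mesenchyme (0.47, SE 0.11). Gadd45b had 5.84, 8.65 and 4.92 CPM in treated intestine and 2.99, 2.66 and 2.39 CPM in epithelium (log2 1.27, SE 0.31). Zfp36 had 20.3, 21.2 and 19 CPM in treated intestine and was lower than in epithelium (log2 -0.99, SE 0.25), a call lost without treated library 3.

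Gadd45a was the member lowest in treated intestine relative to both layers, with 9.77, 8.54 and 8.19 CPM. No library of either layer was as low, the nearest being epithelium 3 at 16.4 CPM and mesenchyme 1 at 18.5 CPM. The log2 difference was -2.19 against mesenchyme (SE 0.34, edgeR adjusted p = 0.00103) and -1.03 against epithelium (SE 0.33, edgeR adjusted p = 0.0221). The call against epithelium was lost without epithelium 1, epithelium 2 or any 1 treated library. E230016M11Rik, itself in the count table, overlaps Gadd45a on the opposite strand over 337 bases.

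A stricter test asked which genes lay beyond both layers, since tissue that holds both can give any level between them. It took the larger of the p-values of the 2 comparisons where both differences had the same sign, adjusted over all genes. It called 5.07% of all genes tested, 1.24% higher and 3.83% lower, and 0 of the 35 members. Unadjusted edgeR p-values under 0.05 were found for 2 members, Gadd45a (log2 -1.03 from the nearer layer, edgeR adjusted p = 0.137) and Jund (0.32, edgeR adjusted p = 0.221). DESeq2 called 1 member, Gadd45a (adjusted p = 0.0295). Over all alternatives the adjusted p of Gadd45a ranged upward from 0.0115, the value without mesenchyme 1, to 0.457, the value without treated library 3. Hsph1 also passed without mesenchyme 1 (log2 -0.40, adjusted p = 0.0177), and Trib3 without mesenchyme 3 (log2 -0.83, adjusted p = 0.0122). Over all alternatives the adjusted p of both reached 1, and that of Jund was 0.0528 to 0.371. Cell type markers were not all between the layers. The sum of 8 erythroid markers was 521 to 658 CPM in treated intestine, 21.7 to 46.3 CPM in epithelium and 164 to 291 CPM in mesenchyme. That of 6 mesothelial markers was 62.9 to 157, 19.5 to 25.6 and 47.6 to 66.7 CPM. Sums of the other marker lists lay between the layers. The part of such cells in levels beyond both layers was not tested.

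Among heat shock genes Hsp90aa1 stood out from the mesenchyme. It had 456, 510 and 517 CPM in treated intestine, against 438 to 475 CPM in epithelium and 142 to 231 CPM in mesenchyme. The treated level was higher than in mesenchyme (log2 1.34, SE 0.18, edgeR adjusted p = 0.000417) and did not pass against epithelium (0.13, SE 0.17, edgeR adjusted p = 0.542). Dnajb1 had 62.7, 63.8 and 66.6 CPM in treated intestine, with a difference from mesenchyme of 0.38 (SE 0.13, edgeR adjusted p = 0.0369) that was not called without any 1 treated library. Hspb1 had 5.63, 4.12 and 4.51 CPM in treated intestine, higher than in epithelium (log2 1.86, SE 0.26, edgeR adjusted p = 0.000209) and within the range of mesenchyme (-0.11, SE 0.24). Hspa1a had 4.94, 6.27 and 4.97 CPM and Hspa1b had 7.86, 8.25 and 6.58 CPM in treated intestine, under each epithelial value of the same copy. Their separate differences from epithelium were -0.64 (SE 0.20) and -0.84 (SE 0.23); both calls were lost without epithelium 1, epithelium 3 or treated library 3, and that of Hspa1a also without treated library 1. Hsph1 had 65.1, 72.4 and 70.5 CPM in treated intestine and 110, 113 and 107 CPM in epithelium (log2 -0.67, SE 0.18), and lost its call without treated library 1. Hspa8 had 1190, 1300 and 1260 CPM in treated intestine, all above the mesenchyme values, and did not pass against that layer (log2 0.49, SE 0.18, edgeR adjusted p = 0.0544), though it passed without mesenchyme 1 or 2 or any 1 epithelium library. Against epithelium Hspa8 (-0.56, SE 0.18) lost its call without epithelium 1 or 2 or any 1 treated library, and Hsp90ab1, with 2100, 2150 and 2030 CPM in treated intestine (-0.62, SE 0.17), kept its call in all 9 leave-outs.

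The ER and integrated stress genes of treated intestine were lower than in epithelium and did not pass against mesenchyme. Trib3 had 34.3, 32.1 and 33.3 CPM in treated intestine, against 230 to 272 CPM in epithelium (log2 -2.94, SE 0.30, edgeR adjusted p = 3.42e-05). The mesenchyme values of 55.1, 63 and 24.8 CPM lay on both sides of it (-0.51, SE 0.28, edgeR adjusted p = 0.174). Atf4 had 325, 343 and 308 CPM in treated intestine (log2 -1.22 against epithelium, SE 0.17, edgeR adjusted p = 0.000197, and -0.14 against mesenchyme, SE 0.16). Ddit3 had 20.7, 22.9 and 19.2 CPM (-1.37 against epithelium, SE 0.23, and -0.06 against mesenchyme, SE 0.23). Hspa5 had 608, 608 and 627 CPM in treated intestine, under every epithelial value. Hspa5 (log2 -0.57 against epithelium, SE 0.22, edgeR adjusted p = 0.0422) and Xbp1 (-0.33, SE 0.13, edgeR adjusted p = 0.046) lost their calls without mesenchyme 3 or any 1 epithelium or treated library, and Xbp1 moved to -0.14 without epithelium 1.

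Known targets of Atf4 were counted in the same way. Of the 21 ATF4 targets 19 were lower in treated intestine than in epithelium and none was higher (median log2 difference -1.57). Of all genes tested 29.8% were lower there. Against mesenchyme 3 targets were higher and 8 were lower (median -0.32), where 20.8% of all genes were higher and 20.5% lower. Under both layers lay 7 targets, 33.3% of the list, where 3.83% of all genes did. Aldh1l2, a mitochondrial enzyme of one-carbon metabolism, had 32, 24.5 and 36.2 CPM in treated intestine, 149, 154 and 149 CPM in epithelium and 113, 122 and 87.2 CPM in mesenchyme. It was 1.79 lower on the log2 scale than the nearer layer (edgeR adjusted p = 0.0015 beyond both layers) and kept the call in all 9 leave-outs. Shmt2, which feeds the same pathway from serine, had 114, 118 and 109 CPM in treated intestine, 511, 518 and 587 CPM in epithelium and 256, 315 and 208 CPM in mesenchyme (log2 -1.19 from the nearer layer, edgeR adjusted p = 0.00471). Slc7a5, the large neutral amino acid transporter, had 99.2, 91.4 and 99.6 CPM in treated intestine, against 247 to 321 CPM in epithelium and 183 to 284 CPM in mesenchyme (log2 -1.19, edgeR adjusted p = 0.00736). The other genes past both layers were Sesn2, Slc3a2, Cars and Aars, at -0.61 to -0.94. The count was 8 without mesenchyme 1, 4 without epithelium 1, 2 or 3, 2 without treated library 1, 2 without treated library 2 and 1 without treated library 3. It was 3 with only the 6 libraries of each pair in a fit.

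**Figure D4:**
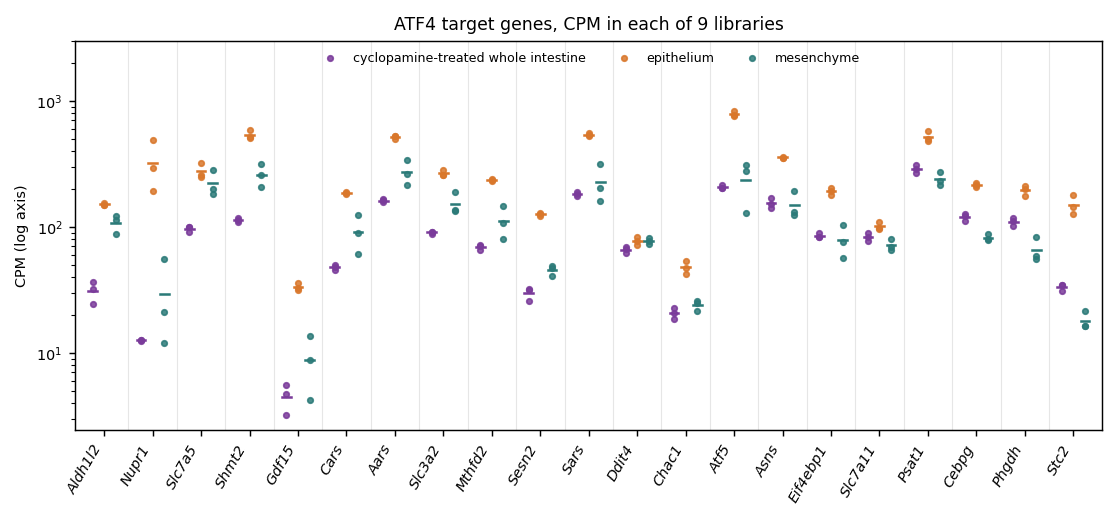
CPM on a log axis of the 21 ATF4 target genes in the 9 libraries, ordered by the log2 difference of treated whole intestine from mesenchyme; points are libraries and bars are group means. At the left end Aldh1l2 lies at 24.5 to 36.2 CPM in treated intestine, under both layers, and at the right end Stc2 lies at 31.2 to 34.7 CPM in treated intestine, between epithelium at 127 to 179 CPM and mesenchyme at 16.3 to 21.4 CPM.

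Beyond both layers lay 5.07% of all genes tested. In the other lists the share was 19.2% for the unfolded protein response and 20% for p53 targets. It was 4.17% for heat shock and 3.33% for immediate early genes. Of 26 other genes of the unfolded protein response 5 lay under both layers and none above, among them Syvn1, an ER ubiquitin ligase (log2 -1.12 from the nearer layer), and Herpud1 (-0.93), both of ER-associated degradation. The count under both layers was 9 without mesenchyme 1, 3 without mesenchyme 3, 2 without treated library 1, 2 without treated library 2 and 0 without treated library 3. Syvn1 was not called without any 1 treated library, nor Herpud1 without treated library 3. Of 24 other heat shock genes 1 lay under both layers, Hsf1, the master regulator of the heat shock response. Hsf1 had 32.9, 31.1 and 29 CPM in treated intestine, 64.6, 69.9 and 69.5 CPM in epithelium and 64.9, 57.4 and 50.8 CPM in mesenchyme (log2 -0.89 from the nearer layer, edgeR adjusted p = 0.00543), and was not called without treated library 3. Of 30 other immediate early genes 1 lay under both layers, the stress kinase Plk3 (log2 -1.61), with 4.14, 2.55 and 2.39 CPM in treated intestine, 12.5, 9.11 and 9.59 CPM in epithelium and 8.74, 10.5 and 8.32 CPM in mesenchyme. Its call was lost without treated library 2 or 3. Of 15 p53 targets 1 lay above and 2 lay under both layers. The gene above was not called without epithelium 2, mesenchyme 2 or 3, or any 1 treated library, and of the genes under both layers none was called without any 1 library other than mesenchyme 1.

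The authors' deposited table compares treated intestine with mesenchyme. At a deposited adjusted p under 0.05 it held 3 members higher, where 9.87% of its 20187 genes with a value were higher, and 2 lower, where 9.63% were lower. In the authors' deposited table Hsp90aa1 was higher by log2 1.31 (deposited adjusted p = 5.62e-07), Atf3 by 0.87 (0.0474) and Jund by 0.48 (0.0449). Gadd45a was lower in the authors' deposited table by log2 -2.18 (deposited adjusted p = 0.00431) and Ier3 by -1.2 (0.00528). All 5 were also among the 11 members called here.

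Replicates of a group varied about as much over the members as over all genes. The median SD of log2 CPM over members was 0.13 in treated intestine, 0.14 in epithelium and 0.31 in mesenchyme, against 0.14, 0.14 and 0.33 over all genes tested. The mesenchyme libraries differed by role. In mesenchyme 1 the transcription factors lay a median of 0.39 above the mean log2 CPM of mesenchyme 2 and 3, 11 of 16 being higher, while all 8 heat shock genes lay below it, by a median of -0.42. All genes tested lay at -0.10 there. Egr1 shows the first of these shifts, with 91.1 CPM in mesenchyme 1 against 38.2 and 50.8 CPM in mesenchyme 2 and 3, and Hsp90aa1 the second, with 142 against 210 and 231 CPM. In mesenchyme 2 all 5 ER and integrated stress genes were above the mean of mesenchyme 1 and 3, by a median of 0.57. In epithelium 1, 29 of the 35 members were above the mean of epithelium 2 and 3, with a median of 0.15 over all 35. Of all genes tested 7949 of 15699 were above it, with a median of 0. Epithelium 1 also held the most fibroblast and mesenchyme marker counts of the epithelium libraries, and their part was not tested. The share of Rn45s in mesenchyme 1 moved with its pattern, and its part was not tested.

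**Figure D5:**
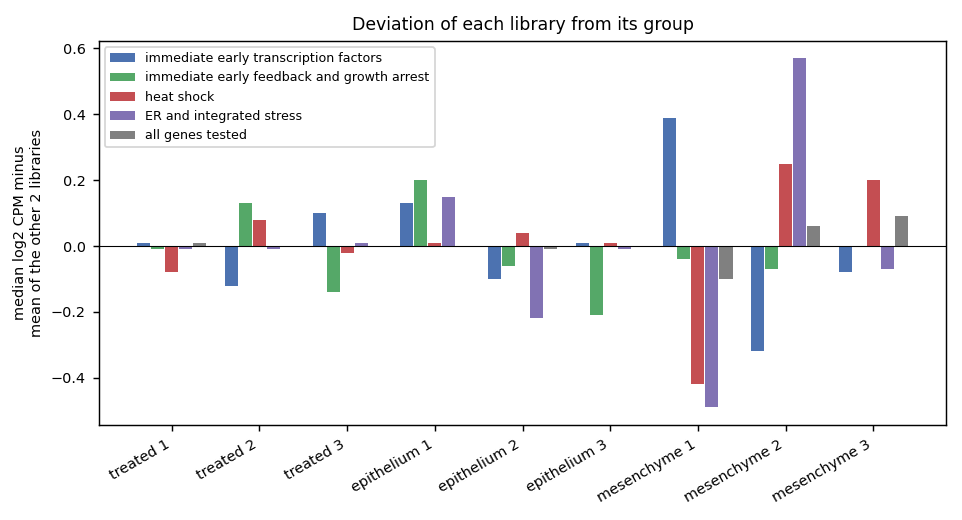
Median over each role's members of the log2 CPM of a library minus the mean of the other 2 libraries of its group, with all genes tested in grey; each cluster of bars is a library. Mesenchyme 1 shows 0.39 for immediate early transcription factors and -0.42 for heat shock genes, and mesenchyme 2 shows 0.57 for ER and integrated stress genes, while the bars of treated intestine stay between -0.14 and 0.13.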

How the data were processed

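RNA sequencing libraries of 3 groups of 3 were analysed. TopHat2 2.0.13, the genome build mm9 and DESeq are named in the submitters' processing notes. The counting program and its strand setting are not given in these sources. The authors deposited whole read counts per RefSeq identifier, group means of treated intestine and mesenchyme (a signal, counts scaled between libraries) and adjusted p-values of their own comparison, per the file headers. The epithelium and mesenchyme columns, 6 in all, are identical in both deposited count tables.

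The deposited counts of all 9 libraries were fitted together in edgeR 4.0.16 (R 4.3.3). Low genes were removed by filterByExpr at a minimum count of 10, libraries were scaled by TMM, and a two-sided quasi-likelihood F test was adjusted by Benjamini-Hochberg over 15699 genes, with a threshold of 0.05. CPM uses the TMM-scaled library size, log2 differences are treated minus layer or epithelium minus mesenchyme, and SE is the size of the difference over the square root of F. The 3 comparisons share libraries. The test was checked on simulated counts in which both layers had the same level for every gene. Scaling and calls with layers that differ as widely as here were not checked. DESeq2 1.42.0 was an alternative, beside other scalings, no filter, a replicate block, fits of 6 libraries, a library size without Rn45s, Lars2 and Mir6236, a threshold of 0.01 and leaving out each library. Lengths and overlapping genes come from a GRCm38 annotation, and promoters from RefSeq (GRCm38.p6), used for letters and not mixed with mm9 coordinates.

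All 35 members are described. Values per library follow, in each role and comparison, for up to 4 called members a direction with the largest log2 difference (Zfp36 in mesenchyme by its highest value, mean and SD), and up to 3 genes a direction are named from each other list. Jund, Egr1 and the other members given per library beyond that were chosen after their values were seen, as were Sesn2, Slc3a2, Cars and Aars. The members and lists were chosen with earlier results of these data known. The labels do not say that replicates are separate embryos, and the p-values describe the spread of these libraries alone, which may be technical. Chi-square per degree of freedom between replicates, on counts that include Rn45s, was 1089 and 1358 for the pairs with mesenchyme 1. For the other pairs it was 9.274 to 32.6, so no pair agreed within sampling noise.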

Additional observations from a re-analysis of the deposited data

How the results depend on the processing

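The 17 alternatives were run on 194 values of named genes, giving 3298 values: 3030 kept their side of the threshold, 241 lost a call, 27 gained one and 0 changed direction while called. Of 72 calls of members, 50 held under all 17 alternatives and 53 when any 1 library was left out. Against epithelium 18 of 30 member calls held under all, against mesenchyme 6 of 11, and between the layers 26 of 31. The replicate block, run because the groups share replicate numbers, left 13 members higher and 14 lower than epithelium, 6 and 6 than mesenchyme, and 16 and 15 between the layers. Against epithelium it lost the calls of Jund, Ier3 and Xbp1. Against mesenchyme it lost that of Nr4a2 and gained those of Klf2 and Hspa8. Between the layers it lost that of Dnajb1 and gained that of Hsph1. Of 9 correlations between same-numbered libraries 3 were over 0.1 (-0.202 to 0.268). Libraries of different numbers were not correlated for reference, so whether the numbers pair the libraries cannot be told.

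Leaving out 1 library gave 12 to 15 members higher and 8 to 16 lower in treated intestine than in epithelium, 4 to 9 and 3 to 7 against mesenchyme, 14 to 18 and 14 to 15 for epithelium against mesenchyme, and 0 and 0 to 2 beyond both layers. Over all genes it gave 1972 to 3511 lower in treated intestine than in mesenchyme, and 25 to 411 higher and 75 to 1036 lower than both layers, against 195 and 601 with all libraries. At a threshold of 0.01, 9 members were lower in treated intestine than in epithelium, and 3 higher and 3 lower than in mesenchyme, with 2043 genes higher and 1757 lower than mesenchyme and 22 higher and 195 lower than both layers. Beyond both layers, DESeq2 called 398 genes higher and 1077 lower, with 1 member lower, fits of 6 libraries called 361 lower, with 1 member lower, and upper quartile scaling called 368 higher (46.9% of its calls, against 24.5%). The cause of these shifts was not tested. The depth of mesenchyme 1 limits members near 1 CPM, such as Egr2, Fosb and Klf2.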
